A study of Mus musculus with 2 samples.

Results

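The genes described here encode miR-1, miR-133 and miR-206, the microRNAs of striated muscle that are transcribed in pairs. They were chosen by name: Mir206, Mir133b, Mir1a-1, Mir133a-2, Mir133a-1 and Mir1b, 6 of the 1973 miRNA genes counted. Mir1a-2, which pairs with Mir133a-1, was not among the rows analysed here. It lies on the strand opposite Mir1b, so the reads counted on that opposite strand were taken for it. Small RNAs below 30 nt were sequenced from hearts of healthy B6NCrl mouse embryos at day 11.5, with no treatment and no genetic change named, in 2 libraries labelled as biological replicates 1 and 2. Each library pooled tissue from male and female embryos, 109 of them in replicate 1 and an unstated number in replicate 2. The replicates carry different tissue sample entries and a common donor entry in the labels. With 1 library per pool, their spread holds differences between pools and between libraries, which cannot be told apart. With 1 group there was no contrast between conditions.

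In mammals each of these loci makes a precursor RNA that carries a member of the family of miR-1 and miR-206 and a member of the miR-133 family. A microRNA recognises its targets mainly through its seed, bases 2 to 8 from the 5′ end. In mouse heart, miR-1 and miR-133a are known as abundant microRNAs of cardiomyocytes, where miR-1 represses the transcription factor Hand2 and miR-133a restrains growth and smooth muscle genes. The miR-206 and miR-133b pair is known chiefly from skeletal muscle.

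The mature sequences are from RefSeq on GRCm38.p6. They are given because the 3′ arms of Mir206 and Mir133b carry the seeds by which each family is defined. The Mir1a-1 arm is given because it holds no 20-base stretch found in a hairpin at another locus. Capitals mark the seed, and all sequences run 5′ to 3′. Of the 7 loci (the 6 genes and Mir1a-2), 3 had an entry in the table.
miR-206-3p: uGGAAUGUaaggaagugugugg
miR-206-5p: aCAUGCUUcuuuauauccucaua
miR-1a-1-5p: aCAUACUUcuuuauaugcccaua
miR-133b-3p: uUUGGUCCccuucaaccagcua
miR-133b-5p: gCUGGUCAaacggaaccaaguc
All lie on the plus strand: miR-206-3p at chr1:20679055-20679076, miR-206-5p at chr1:20679017-20679039, miR-1a-1-5p at chr2:180389057-180389079, miR-133b-3p at chr1:20682834-20682855 and miR-133b-5p at chr1:20682797-20682818.

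The 5′ arms of Mir206 and Mir1a-1 have the same length and differ at 3 bases. With positions counted from 1 at the 5′ end and miR-1a-1-5p as the reference, these are A5G, G17C and C19U, the first of them in the seed. In the same table the seed of miR-206-3p was shared by miR-6349 and miR-6382, whose genes had 0 counts in both libraries. A count of 0 allowed up to 1.49 CPM in replicate 2 and 0.162 CPM in replicate 1, from 3 counts of each total. CPM are own-strand counts scaled to 1000000 over all miRNA genes of the library. The seed of miR-133b-3p had no other bearer in the table, which does not hold every miRNA. It has no mature arm of Mir1a-2, Mir1b, Mir133a-1 or Mir133a-2 and no 3′ arm of Mir1a-1. Seeds shared within the miR-1 and miR-206 family and within the miR-133 family could therefore not be read from it.

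The hairpins of the chromosome 1 pair are given with the 3′ arm in capitals. They were the only hairpins of these loci among the RefSeq entries used. These 2 genes also had the smallest share of 20-base windows found at another locus.
Mir206: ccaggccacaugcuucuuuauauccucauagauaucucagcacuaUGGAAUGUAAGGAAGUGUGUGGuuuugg
Mir133b: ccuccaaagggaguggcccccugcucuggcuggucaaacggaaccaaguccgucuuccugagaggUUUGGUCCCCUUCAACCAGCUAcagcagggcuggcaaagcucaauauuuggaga

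On GRCm38 (the build also called mm10) with GENCODE M21, Mir206 (ENSMUSG00000065559.1) lies at chr1:20679010-20679082 and Mir133b (ENSMUSG00000065480.1) at chr1:20682769-20682887, both on the plus strand. Both overlap annotated exons of the long noncoding RNA gene Gm28653, and 3686 bases separate them. Mir1a-1 (ENSMUSG00000070144.1, chr2:180389048-180389124) and Mir133a-2 (ENSMUSG00000065460.1, chr2:180398379-180398482) lie 9254 bases apart on the plus strand, and no M21 gene of a type other than miRNA overlaps them. On chromosome 18, Mir133a-1 (counted as ENSMUSG00000065399.1, placed by the later version of the same ID) lies at chr18:10782909-10782976 on the minus strand, in an intron of Mir133a-1hg. Mir1a-2 (chr18:10785481-10785552, minus strand) lies 2504 bases upstream of it in the same host gene. Mir1b (ENSMUSG00000080662.1, chr18:10785446-10785567) is annotated on the plus strand over Mir1a-2, in an intron of Mib1, a ubiquitin ligase gene of the Notch pathway.

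**Figure D1:**
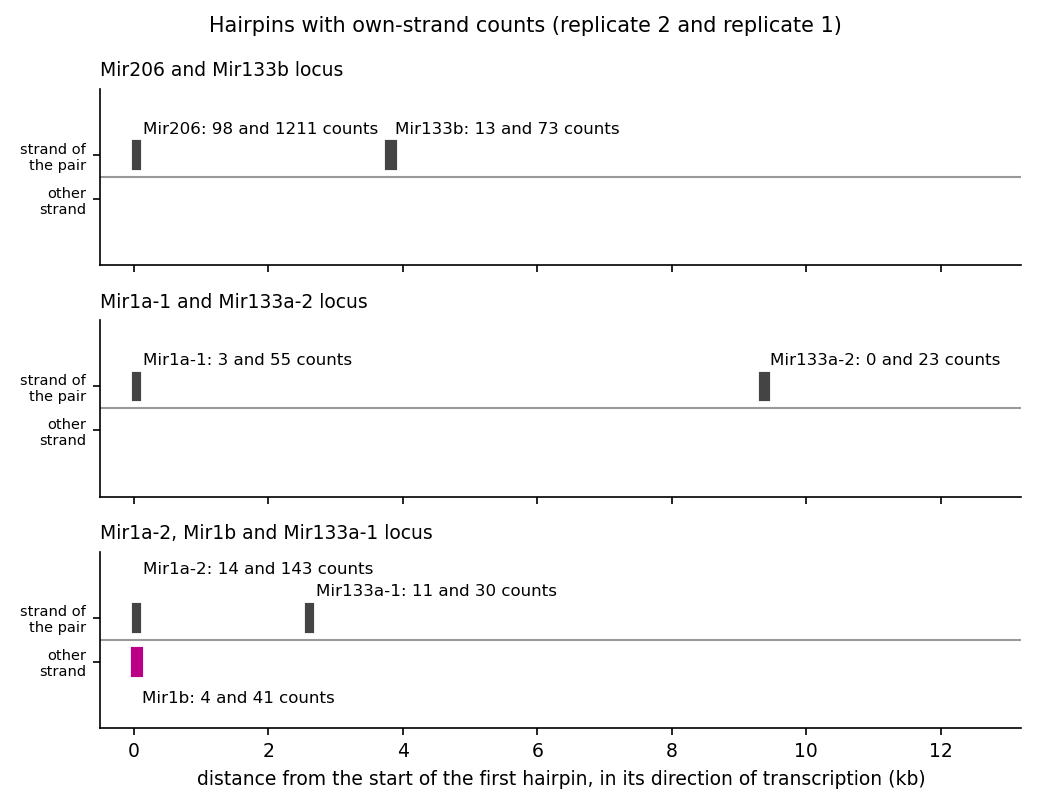
Positions of the hairpins at the 3 loci, as distance in kb from the start of the first hairpin in its direction of transcription; the upper row of each map is the strand of the paired hairpins and the lower row the other strand. Each hairpin carries its own-strand counts in replicate 2 and then replicate 1; the Mir1a-2 counts are those on the strand opposite Mir1b, and Mir206 has the highest counts of the 7 hairpins in both libraries.

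The libraries differed 9.15-fold in depth, with 2017294 own-strand counts on miRNA genes in replicate 2 and 18467499 in replicate 1. Reads that mapped to several places numbered 1174235 in replicate 2 and 12025096 in replicate 1, or 33.2% and 33.8% of mapped reads. They stand in a row of their own and, by the layout of the tables, on no gene. The heart label was checked against marker lists. The cardiomyocyte list (Mir208a, Mir208b and Mir499, encoded in myosin heavy chain genes) was detected in full and summed to 63138 CPM in replicate 2 and 58391 CPM in replicate 1. The summed levels in replicates 2 and 1 were 98626 and 93726 CPM for the smooth muscle list, 84700 and 79505 CPM for endothelium and 983 and 995 CPM for erythroid cells. They were 366 and 396 CPM for leukocytes, 1488 and 2144 CPM for epithelium, 594 and 919 CPM for liver and endoderm and 37.7 and 55.1 CPM for the neural list. In the neural list 3 of 7 counted genes (Mir124a-1, Mir124a-3 and Mir9-2) were at 0 in both libraries. Another 2 of the 7 reached 1 CPM or more in both, as did 21.2% of all 1973 genes. Of all 1973 genes only 783 had a count in either library, so zeros were common and do not set the neural list apart.

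Summed as counted, the 6 genes held a minor part of the own-strand counts on miRNA genes in heart. They summed to 129 counts or 63.9 CPM in replicate 2 (exact 95% Poisson interval 53.4 to 76.0) and to 1433 counts or 77.6 CPM in replicate 1 (73.6 to 81.7), a mean of 70.8 ± 9.65 CPM (SD, n = 2). Mir206 held 76.0% of these counts in replicate 2 (exact Clopper-Pearson 95% interval 67.7 to 83.1%) and 84.5% in replicate 1 (82.5 to 86.3%). The other 5 genes summed to 15.4 CPM in replicate 2 and 12.0 CPM in replicate 1. The reads taken for Mir1a-2, 14 counts in replicate 2 and 143 in replicate 1, are in none of these sums. The share of Mir206 would be lower with them. At least 1 CPM in each of the libraries was reached by 5 of the 6, all but Mir133a-2, and by 21.2% of all 1973 genes; such genes were called detected. All 6 had a mean of at least 10 counts over the libraries, as had 457 of all 1973 genes. This mean rests mostly on replicate 1, the deeper library. In replicate 2 Mir1a-1, Mir1b and Mir133a-2 had 3, 4 and 0 counts. Reads here carry no stated molecular identifiers and are not independent molecules, so these intervals and limits hold counting error only. Reads that mapped to several places are in neither the sums nor the totals. The sums thus do not give the share of mature miR-1 and miR-133a in heart.

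The counts cannot stand for the amounts of mature miR-1 and miR-133a, because parts of their hairpins occur at more than 1 locus. Each annotated hairpin was read in windows of 20 bases, and a window was called shared when it recurred in a miRNA hairpin at another locus. No window of Mir206 was shared, of 54. In Mir133b 2 of 100 were shared, with Mir133a-1 and Mir133a-2, and they cover 21 of the 22 bases of miR-133b-3p. With windows of 22 bases, none of Mir133b was shared, so a full-length read of that arm differs from the other loci while one that lacks its last base does not. In Mir1a-1, 9 of 58 windows were shared, with the Mir1a-2 and Mir1b locus, and formed 1 run of 28 bases at positions 45 to 72 of the hairpin. The arm miR-1a-1-5p, at positions 10 to 32, lies outside that run. Shared windows numbered 17 of 49 in Mir133a-1 and 17 of 85 in Mir133a-2, each in a run of 24 and a run of 31 bases. In Mir1b they numbered 9 of 103 and in Mir1a-2 9 of 53. The overlap of Mir1b with Mir1a-2, which is the same DNA read on the other strand, was not counted as shared. Which arm gave the counted reads, and how many multimapping reads came from these loci, was not measured here.

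**Figure D2:**
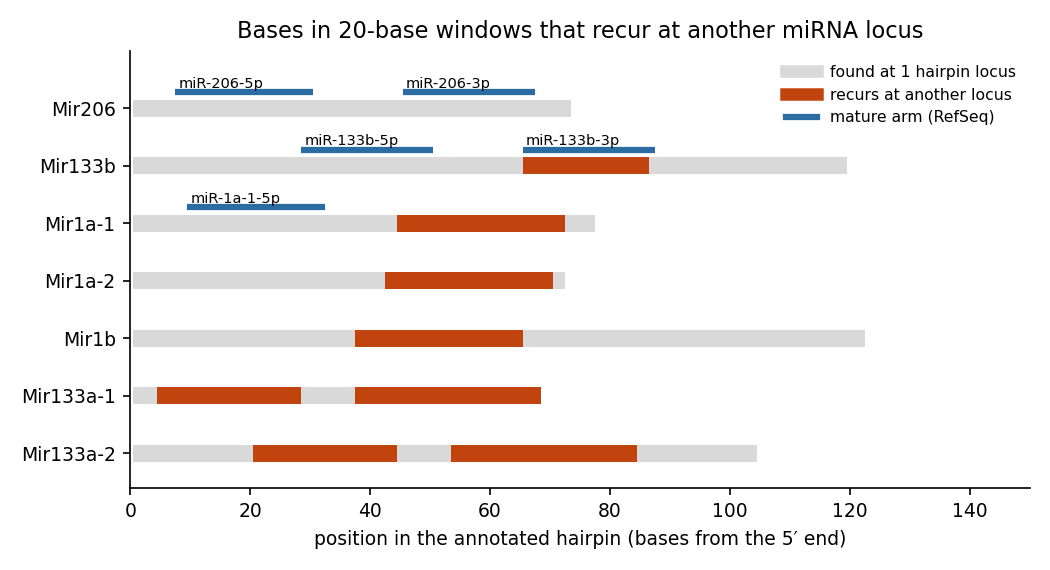
Each grey bar is an annotated hairpin, with position in bases from its 5′ end on the x axis; orange marks bases in 20-base windows that recur in a hairpin at another locus, and blue lines mark the mature arms given by RefSeq. Mir206 has no orange base, miR-133b-3p is covered for 21 of 22 bases, and miR-1a-1-5p lies outside the orange run of Mir1a-1.

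Among the miR-1 and miR-206 genes, Mir206 had by far the highest count. It had 98 counts or 48.6 CPM in replicate 2 (exact Poisson interval 39.4 to 59.2) and 1211 counts or 65.6 CPM in replicate 1 (61.9 to 69.4), a mean of 57.1 ± 12.0 CPM (SD, n = 2), and ranked 228 of the 1973 genes by mean CPM. Both libraries lay well above the 3-count limit, and the intervals did not overlap. The 3 genes nearest to it by Euclidean distance of log2(CPM + 1) over the 2 libraries were Mir192 (distance 0.07), Mir701 (0.14) and Mir378c (0.22). With 2 libraries this measure says only that their levels were alike.

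The strand opposite Mir1b, read for Mir1a-2, came next. It held 14 counts or 6.94 CPM in replicate 2 (3.79 to 11.6) and 143 counts or 7.74 CPM in replicate 1 (6.53 to 9.12), a mean of 7.34 ± 0.57 CPM (SD, n = 2). The libraries were alike within counting error. Mir206 exceeded it 7.70-fold, with a log2 ratio of 2.81 in replicate 2 and 3.08 in replicate 1. The term "larger than the spread" is used where both exact binomial intervals exclude equality on the same side and, with a value in each library, the mean log2 ratio exceeds its SD. This ratio (2.94 ± 0.19, SD, n = 2) was larger than the spread.

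Mir1a-1, the other miR-1a gene, had 3 counts or 1.49 CPM in replicate 2 (0.307 to 4.35) and 55 counts or 2.98 CPM in replicate 1 (2.24 to 3.88). In replicate 2 it stood at the 3-count limit. The strand opposite Mir1b exceeded Mir1a-1 with a log2 ratio of 2.22 in replicate 2 (exact interval 0.38 to 4.66) and 1.38 in replicate 1 (0.92 to 1.85). The Mir1a-2 side thus had more counts than Mir1a-1 in both libraries, by a ratio larger than the spread (1.80 ± 0.60, SD, n = 2). Mir1b had 4 counts or 1.98 CPM in replicate 2 (0.540 to 5.08) and 41 counts or 2.22 CPM in replicate 1 (1.59 to 3.01), which did not differ from Mir1a-1 beyond the spread (log2 ratio of Mir1a-1 over Mir1b 0.00 ± 0.59, SD, n = 2).

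In the miR-133 family all counts were low. Mir133b had 13 counts or 6.44 CPM in replicate 2 (3.43 to 11.0) and 73 counts or 3.95 CPM in replicate 1 (3.10 to 4.97), a mean of 5.20 ± 1.76 CPM (SD, n = 2). Mir133a-1 had 11 counts or 5.45 CPM in replicate 2 (2.72 to 9.76) and 30 counts or 1.62 CPM in replicate 1 (1.10 to 2.32). Mir133b lay above Mir133a-1 in both libraries, though in replicate 2 the interval of their ratio (-1.03 to 1.54 on the log2 scale) held equality. Mir133a-2 had 0 counts in replicate 2, where 3 counts correspond to 1.49 CPM, and 23 counts or 1.25 CPM in replicate 1 (0.789 to 1.87). At the depth of replicate 2 the replicate 1 level corresponds to 2.51 counts, so a level like that of replicate 1 lay under the 3-count limit at this depth. The 3 genes nearest to Mir133b over the 2 libraries were Mir7658 (distance 0.10), Mir1943 (0.11) and Mir19b-2 (0.22).

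**Figure D3:**
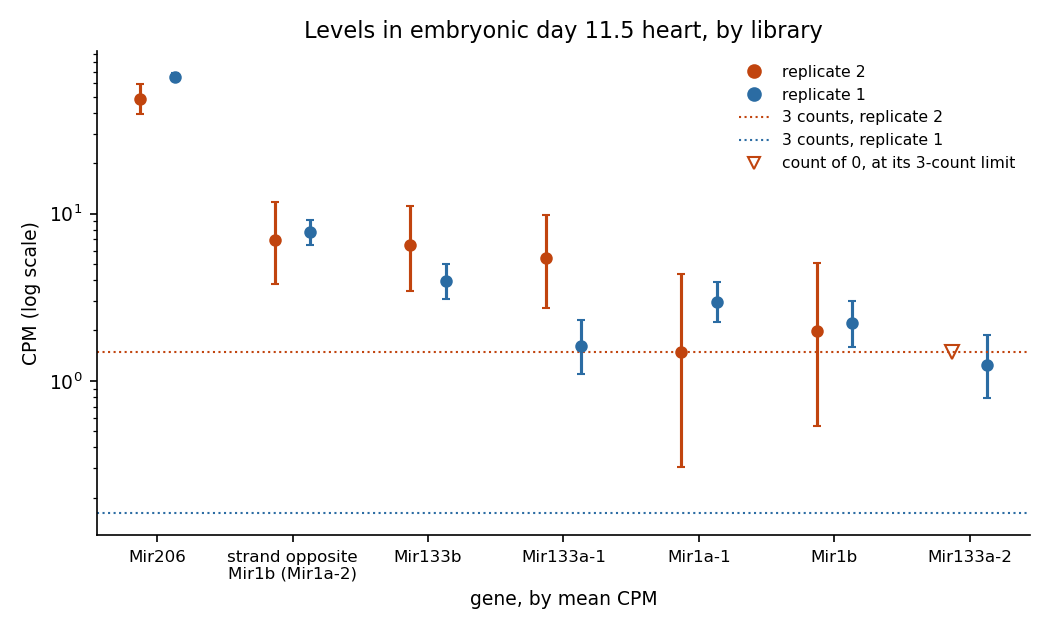
CPM on a log scale for the 6 genes and for the strand opposite Mir1b, ordered by mean CPM; points are libraries (replicate 2 left of replicate 1), bars are exact 95% Poisson intervals of the count, dotted lines mark 3 counts in each library and the open triangle is a count of 0, drawn at its 3-count limit. Mir206, at 48.6 and 65.6 CPM, lies above the other genes, which range up to 7.74 CPM and whose intervals overlap those of their neighbours in replicate 2.

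By mean CPM the order was Mir206, the strand opposite Mir1b, Mir133b, Mir133a-1, Mir1a-1, Mir1b and Mir133a-2. Of the 6 steps between neighbours, the step from Mir206 to the next was larger than the spread and the other 5 were not. Mir206, the strand opposite Mir1b and Mir133b each exceeded Mir133a-2, at the bottom of the order, by more than the spread. Replicate 1, the deeper library, put Mir133a-1 (1.62 CPM) below Mir1a-1 (2.98 CPM) and Mir1b (2.22 CPM), so its place rests on replicate 2. The log2 ratio of Mir133a-1 over Mir1a-1 was 1.87 in replicate 2 (exact interval -0.05 to 4.36) and -0.87 in replicate 1 (-1.57 to -0.21). Divided by the length of the gene model (that of Mir1b for its opposite strand), mean levels per 100 bases were 78.2 CPM for Mir206, 6.02 CPM for the strand opposite Mir1b, 5.20 CPM for Mir133a-1, 4.37 CPM for Mir133b, 2.90 CPM for Mir1a-1, 1.72 CPM for Mir1b and 0.599 CPM for Mir133a-2. On that scale the mean of Mir133a-1 lay above that of Mir133b, as it did in replicate 2 (8.02 and 5.42 CPM per 100 bases), while in replicate 1 it lay below (2.39 and 3.32 CPM per 100 bases).

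The partners made from the same locus were compared next, as ratios of the miR-1 or miR-206 gene over its miR-133 gene within each library. On chromosome 1, Mir206 exceeded Mir133b 11.2-fold, with a log2 ratio of 2.91 in replicate 2 (exact interval 2.07 to 3.87) and 4.05 in replicate 1 (3.71 to 4.41). This was larger than the spread (3.48 ± 0.80, SD, n = 2), while its size differed between the libraries. On chromosome 18 the strand opposite Mir1b over Mir133a-1 gave 0.35 in replicate 2 (-0.90 to 1.63) and 2.25 in replicate 1 (1.68 to 2.87), which was not larger than the spread (1.30 ± 1.35, SD, n = 2). On chromosome 2 Mir1a-1 over Mir133a-2 gave 1.26 in replicate 1 (0.53 to 2.03); in replicate 2 the counts of 3 and 0 allowed no ratio. In each comparison with a value, the miR-1 or miR-206 partner had the higher count. Ratios compare counts, which depend on how well each RNA is captured and, outside Mir206, on the shared windows described above.

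Opposite-strand reads were counted at the miR-1 loci. They numbered 0 in both libraries at Mir206, Mir133b, Mir133a-1 and Mir133a-2, which for Mir206 allows a share of up to 3.06% in replicate 2 and 0.248% in replicate 1, from 3 counts. At Mir1b opposite-strand reads were 14 of 18 both-strand counts, 77.8% in replicate 2 (52.4 to 93.6%), and 143 of 184, 77.7% in replicate 1 (71.0 to 83.5%). This is the strand of Mir1a-2. More opposite-strand than own-strand counts in both libraries was found for 2.57% of the 467 genes with a mean of at least 10 both-strand counts, Mir1b among them. Mir1a-1 also had opposite-strand reads, 3 of 6 counts in replicate 2 (50.0%, interval 11.8 to 88.2%) and 15 of 70 in replicate 1 (21.4%, 12.5 to 32.9%). On that strand M21 annotates no gene of a type other than miRNA, and miRNA genes were not searched. Over all genes the opposite strand held 4.48% of counts in replicate 2 and 4.59% in replicate 1.

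The agreement of the libraries was examined by an exact binomial test, two-sided, of replicate 2 against replicate 1, given the library totals. The test was run over all 783 genes with a count, with Benjamini-Hochberg adjustment. It compares 2 libraries and allows for counting error alone. Mir133a-1 was the 1 gene of the 6 that passed an adjusted p of 0.05 with a change of at least 2-fold, as did 1.66% of all genes tested (0.639% higher and 1.02% lower in replicate 2). It was 3.36-fold higher in replicate 2, with 5.45 CPM there and 1.62 CPM in replicate 1 (exact interval of the ratio 1.52 to 6.89, adjusted p = 0.0141, exact binomial test), on 11 and 30 counts. edgeR's exact test was also run, at a common dispersion (biological coefficient of variation 18.1%). It sets 1 library against 1 with a dispersion estimated from the same 2 libraries, which already holds their difference, so it does not weigh the Mir133a-1 call. It called 0 of the 6 genes, 1 of which had an unadjusted p under 0.05, and 0.875% of the 457 genes it could use.

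Mir206 was 0.741-fold in replicate 2 relative to replicate 1 (exact interval 0.597 to 0.911, adjusted p = 0.0259, exact binomial test), past the p threshold and short of 2-fold; without the fold minimum 7.66% of all genes were lower in replicate 2. The epithelial list (1488 and 2144 CPM) and the liver and endoderm list (594 and 919 CPM) were also lower in replicate 2, with 6 of 7 and 3 of 6 genes below at an adjusted p under 0.05 (exact binomial test), of which Mir122 (0.405-fold) and Mir375 (0.432-fold) in the second list passed the 2-fold rule. In that list Mir194-1 (1.05-fold) and Mir194-2 (1.15-fold) were not lower. The neural list was lower in sum (37.7 and 55.1 CPM), with Mir219a-1 at 0.497-fold past the 2-fold rule and Mir137 at 0.944-fold. The cardiomyocyte, smooth muscle and endothelium lists had higher sums in replicate 2. Their part in the Mir206 value was not tested. In whole tissue, fewer cells of a type and less RNA per cell cannot be told apart. Mir133b stood at 1.63-fold (0.829 to 2.96), Mir1a-1 at 0.499-fold (0.0999 to 1.54) and Mir1b at 0.893-fold (0.232 to 2.47) in replicate 2 relative to replicate 1, and all 3 intervals held equality. For Mir133a-2, 0 counts against 23, the interval of the ratio ran from 0 to 1.59.

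**Figure D4:**
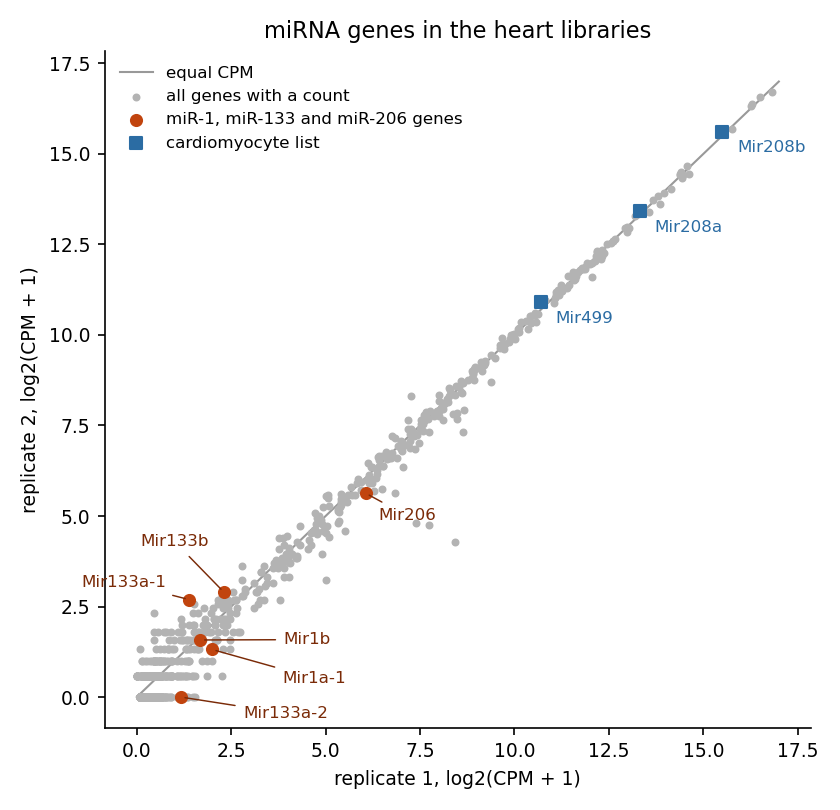
Each point is a miRNA gene with a count in either library, with log2(CPM + 1) in replicate 2 on the y axis and in replicate 1 on the x axis; orange points are the 6 genes, blue squares the cardiomyocyte list and the line marks equal CPM. Mir206 lies below the line at 0.741-fold, Mir133a-1 lies above it at 3.36-fold, and the cardiomyocyte genes lie far up the range.

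The other muscle miRNA genes on the fixed list included 3 with far higher counts than the 6 genes and 1 near Mir206. Because of the shared windows, this does not rank mature miR-1 or miR-133a against them, and ratios were taken for Mir206 only. Of 5 listed, 4 were counted and all 4 were detected; Mir486b was not analysed here. Mir206 was below each gene of the cardiomyocyte list. Mir208b exceeded it 856-fold (log2 ratio of Mir206 over Mir208b -9.74 ± 0.39, SD, n = 2), Mir208a 188-fold (-7.56 ± 0.38) and Mir499 31.7-fold (-4.99 ± 0.46), all larger than the spread. Mir486, a miRNA of muscle and red cells, stood close by, with 52.5 CPM (replicate 2) and 89.5 CPM (replicate 1), and the ratio of Mir206 over it (-0.28 ± 0.24) was not larger than the spread, since the replicate 2 interval held equality. Between the libraries none of the 4 passed the 2-fold rule of the exact binomial test, where 1.66% of all genes did. With no fold minimum the 3 cardiomyocyte genes were higher in replicate 2, as were 6.9% of all genes, and Mir486 was lower at 0.587-fold. By this test, which allows for counting error alone, Mir206 and Mir486 were lower in replicate 2. The cardiomyocyte genes were higher, by 1.07-fold (Mir208a) to 1.16-fold (Mir499). Mir133b, the partner of Mir206, did not go with it, at 1.63-fold with an interval that held equality (0.829 to 2.96).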

How the data were processed

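The authors deposited raw counts of reads per miRNA gene on build mm10 with GENCODE M4, per the file headers; no aligner or counter is named there, and so none is given here. A table holds 3 columns of counts with no labels, and 4 summary rows. For all 1973 genes the first column was the sum of the others, which were taken, from this layout, as own strand and opposite strand. The main library sizes and the tests did not use the summary rows, which enter only the alternative with all mapped reads as the denominator. Unmapped reads were 27.5% of all reads in replicate 2 and 38.4% in replicate 1, multimapping reads 24.1% and 20.8%, reads on no gene 7.04% and 8.77%, and ambiguous reads numbered 0. By ID, 1894 genes matched GENCODE M21 on the same build, 1815 with the same version. CPM, exact Poisson, Clopper-Pearson and binomial values were computed in Python 3.11.15 with SciPy 1.17.1. Scaling factors and the exact test used edgeR 4.0.16 and DESeq2 1.42.0 in R 4.3.3; edgeR's exact test used genes with a mean of at least 10 counts. With 1 group, no quasi-likelihood contrast could be fitted, and 2 libraries cannot give a sign-flip p below 0.5. Tests were checked on simulated data. All 6 genes were named, beside the other muscle list, genes with the same seed and the 3 nearest genes of Mir206 and Mir133b. The members and lists were chosen with earlier results of these data known.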

Additional observations from a re-analysis of the deposited data

Results flagged for a closer look

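Reads on the strand opposite Mir1b lie outside the own-strand column used for all other genes, and they stood above the 3 counts that a count of 0 allows: 14 in replicate 2 and 143 in replicate 1. They lie where M21 places Mir1a-2 on that strand. No control samples exist in the series to set them against.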

How the results depend on the processing

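The summed level of the 6 genes, 70.8 CPM, was 38.4 CPM with all mapped reads as the denominator and 13.7 CPM without Mir206 (an alternative chosen after seeing the data); by construction these settings change the denominator or remove most counts. It ranged from 63.9 to 77.6 CPM with a replicate left out. The log2 ratio of Mir1a-1 over Mir133a-2 was 2.02 with 0.5 added to each count, since this brings in replicate 2. Leaving out a replicate gave 2.91 to 4.05 for Mir206 over Mir133b and 0.35 to 2.25 for the strand opposite Mir1b over Mir133a-1. Genes differing between the libraries numbered 21 with a 1.5-fold minimum and 4 with edgeR's exact test, against 13; among the 6 genes edgeR, whose dispersion comes from the same 2 libraries, called 0, against 1. Detection at 5 CPM left 1 of the 6 genes, against 5, and 324 of all 1973 genes, against 419. Both-strand counts, TMM and DESeq2 scaling and count filters moved these results by less than the replicate SD or 1.5 times. Length scaling, also chosen after seeing the data, kept 5 of 7 places in the order. Of the genes taken singly, Mir1b stood at 9.01 CPM with both strands, against 2.10 CPM. The depth of replicate 2 limits all genes but Mir206, at 13 counts or fewer. No paired analysis was possible because there is 1 group.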
